A study of Mus musculus with 2 samples.

Results

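Ribosome biogenesis was followed through 32 mouse genes in single-cell transcriptomes of muscle stem cells, also called satellite cells (SCs). The members were chosen by name from the gene list of the matrices: 30 genes of the nucleolar machinery that makes ribosomes, Srm, which encodes spermidine synthase, and Myc, a transcription factor gene known to act on ribosome production. All 32 were among the 32285 features of both libraries. The QSC library holds quiescent SCs sorted fresh from uninjured tibialis anterior (TA) muscle. The labels give TA muscle as the tissue, while the protocol describes digestion of hind-limb muscles, so the source may be wider. The ASC library holds activated SCs sorted from TA muscle 1.5 days after injection of CTX (cardiotoxin), which destroys muscle fibres. All mice were 8 weeks old and Pax7 CreERT2/+ ;Rosa26 mTmG/+, alleles in which Cre made from the Pax7 locus can switch on a green membrane reporter, so the sort depends on that reporter in both groups. Cells of several mice were pooled into each library. With 1 library per group, library and condition cannot be told apart, no test was possible, and every interval given here is a 95% interval that covers counting error only. Limits given for a median over members are the exception: they are medians of the limits of single genes.

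Ribosomes are built in the nucleolus. RNA polymerase I transcribes a long precursor RNA, small nucleolar RNPs (snoRNPs) modify it and guide its cutting, and separate sets of assembly factors shape the small and the large subunit before they leave the nucleus. Quiescent SCs are small cells with little cytoplasm and low protein synthesis, and they enlarge when they leave quiescence. Spermidine is the substrate from which the hypusine residue of the translation factor eIF5A is made, which is why Srm sits beside genes of translation in the question this study asked.

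The filter of 500 or more detected genes and no more than 10% mitochondrial transcripts kept 516 of 766 barcodes in the QSC library, with 1162091 unique molecular identifiers (UMIs, 1 per captured transcript), and 1468 of 1650 in the ASC library, with 8895815 UMIs. Only 2 kept barcodes occur in both libraries. Many barcodes did not look like SCs: 104 QSC and 946 ASC barcodes took at least 5% of their UMIs from 10 muscle fibre genes and are called contractile-high, and 34 QSC and 82 ASC barcodes took at least 1% from immune, fibroblast or endothelial markers. The remaining 378 QSC and 440 ASC barcodes are called contractile-low muscle. They carried the SC marker Pax7 at 213 CPM (UMIs scaled to a sum of 1000000) in QSC and 29.4 CPM in ASC barcodes, and Myod1, a marker of activation, at 146 and 410 CPM. In contractile-high barcodes Pax7 stood at 9.32 and 1.99 CPM, so the label SC is not borne out by Pax7 there. Other markers were mixed: Myod1 stood at 14.0 CPM in QSC and 166 CPM in ASC contractile-high barcodes. A list of SC markers (Pax7, Myf5, Myod1, Cdh15, Vcam1, Itga7, Chrdl2, Sdc4, Des and Calcr) took 0.271% and 0.482% of UMIs there. Most of these UMIs came from genes of the list other than Pax7 and Myod1, so the share was not read as SC identity. In contractile-low barcodes the same list took 0.506% and 0.276%. The contractile-low barcodes had a median of 2220 UMIs in QSC and 7923.5 in ASC barcodes, a median mitochondrial share of 4.87% and 2.25%, and fibre genes took 1.63% and 1.91%, immune markers 0.016% and 0.024%, of their UMIs. The part of mitochondrial share in the results was not tested. Doublets were not removed.

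In contractile-low muscle barcodes the ribosome biogenesis genes were mostly higher in the ASC library, and Myc was lower. Summed over the 30 nucleolar genes, the level was 2885 CPM in QSC and 6901 CPM in ASC barcodes, 2.39-fold higher (log2 ratio 1.26, interval 1.20 to 1.32). Of the 32 genes, 18 were at least 2-fold higher, which 19.5% of the 10108 genes compared were too, and 1, Myc, was at least 2-fold lower, against 22.5% of all genes compared. The interval lay above 0 for 28 of the 32, and also for 71 of 76 cytosolic ribosomal protein genes. The share over all genes compared was not counted. The median log2 ratio was 1.10 (quartiles 0.74 and 1.66), against -0.11 over all genes compared. Over every kept barcode of both libraries, 16 of the 32 were at least 2-fold higher (17.4% of all genes), 1 was at least 2-fold lower (23.0% of all genes), and the median was 0.92. The difference was not alike at every depth: among barcodes of 2000 to under 5000 UMIs the sum was 2918 CPM in QSC and 3051 CPM in ASC barcodes.

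**Figure D1:**
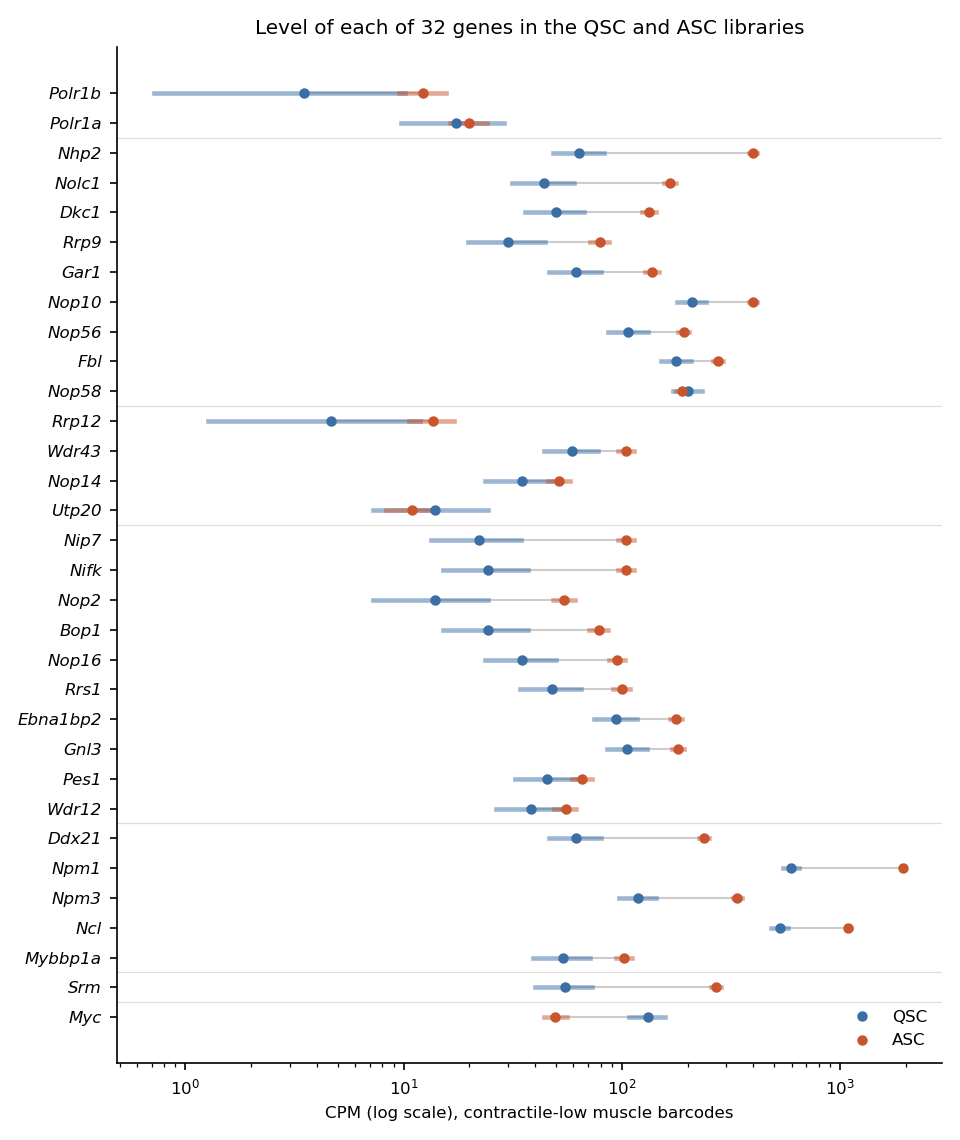
Level of each gene in contractile-low muscle barcodes, in CPM on a log axis, with the QSC library in blue and the ASC library in orange; thick bars are exact Poisson 95% intervals, and horizontal lines separate the roles of the genes. Most orange points lie to the right of the blue ones, from 2.64 on the log2 scale for Nhp2 down to pairs that overlap (Polr1a, Nop58, Utp20), while Myc lies to the left.

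Stretches of promoter are shown for members that share a short motif, since most members were higher in the ASC library. RefSeq promoter windows (GRCm38.p6, 250 bases before to 50 bases after a start) were matched for 25 of the 32 members. The E-box CACGTG, the same on both strands and the sequence that Myc with its partner Max is known to bind, was in the windows of 5 of the 25 (20%), against 8.09% of all 27025 genes with a window and 7.15% of all 32851 windows. These 5 were Nop2, Wdr43, Pes1, Mybbp1a and Utp20. The motif ACTTCCG, or CGGAAGT on the other strand, is of the kind bound by ETS factors and was looked for after the windows had been read. It was in 7 of the 25 (28%), against 7.20% of all genes with a window and 6.42% of all windows. These 7 were Nhp2, Nip7, Nifk, Ddx21, Gar1, Nop10 and Ebna1bp2. Because this motif was picked from the same windows, its share among members cannot be weighed against those of all genes. Member windows had a median of 57% G and C, against 52.7% over all windows, and the part of this in either motif was not tested. The median log2 ratio in contractile-low barcodes was 0.82 for the 5 members with the E-box and 1.28 for the other members matched. For the 7 with the ETS-type motif it was 1.95 (range 0.92 to 2.64), and for the other members matched 0.89 (range -0.35 to 1.97). These ranges overlap, and this contrast cannot be weighed either, since the motif was picked from the same windows. A motif match is a description of letters, not a binding site. The windows of 30 bases printed next have the motif in capitals. They are 1 each for the 3 E-box members and the 4 members of the other motif with the highest ratios:
Nop2, E-box, chr6:125131811-125131840, + strand: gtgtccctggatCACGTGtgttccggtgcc
Wdr43, E-box, chr17:71616220-71616249, + strand: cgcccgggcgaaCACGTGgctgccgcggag
Mybbp1a, E-box, chr11:72441347-72441376, + strand: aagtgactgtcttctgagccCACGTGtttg
Nhp2, ETS-type, chr11:51619740-51619769, + strand: acttgaaaaccCGGAAGTgatgtcggaggc
Nip7, ETS-type, chr8:107056867-107056896, + strand: gtgggaaagtgACTTCCGcttccggctctc
Nifk, ETS-type, chr1:118321806-118321835, + strand: cttccgcctctACTTCCGcttccgagacgc
Ddx21, ETS-type, chr10:62602304-62602333, - strand: gcactccgctgCGGAAGTgacgaataggcc
The motif begins at base -60 from the start in Nop2 and at base -22 in Nhp2.

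The snoRNP genes held both the widest difference and an exception. Nhp2, Gar1, Nop10 and Dkc1 encode the core of the H/ACA snoRNPs, which turn uridines of the precursor RNA into pseudouridine. Nhp2 stood at 63.9 CPM (55 UMIs) in QSC and 397 CPM (2138 UMIs) in ASC barcodes, a log2 ratio of 2.64 (2.25 to 3.05). Dkc1, the pseudouridine synthase itself, had 43 and 718 UMIs (1.42, 0.97 to 1.90), Gar1 at 61.6 and 138 CPM (1.16, 0.76 to 1.60), and Nop10 at 209 and 397 CPM (0.92, 0.70 to 1.15). The 4 core genes were thus all higher in ASC barcodes but not by the same amount, since the interval of Nhp2 lies above those of the other core genes. Nolc1, a chaperone of snoRNPs, stood at 44.2 and 166 CPM (1.91, 1.44 to 2.42).

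The C/D snoRNPs methylate the precursor RNA, and their core proteins differed less between the libraries. Fbl, which encodes the methyltransferase fibrillarin, stood at 178 CPM in QSC and 276 CPM in ASC barcodes (log2 ratio 0.64, 0.40 to 0.89). Nop56, a scaffold of the same particle, stood at 107 and 192 CPM (0.84, 0.54 to 1.17). Its paralog Nop58 stood at 201 CPM (173 UMIs) and 188 CPM (1014 UMIs), a log2 ratio of -0.09 (-0.33 to 0.15). Nop58 was thus at about the same level in both libraries, its interval does not reach a 2-fold difference either way, and relative to the median of all genes compared its ratio turned to 0.02. Rrp9, a protein of the U3 snoRNP, stood at 30.2 and 79.2 CPM (1.39, 0.82 to 2.02).

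Among genes of RNA polymerase I and of the small subunit processome, Polr1a, Polr1b, Utp20 and Rrp12 were measured from few UMIs. The processome is the particle that forms on the 5′ part of the precursor. Polr1a, the largest subunit of the polymerase, stood at 17.4 and 19.9 CPM (log2 ratio 0.19, -0.60 to 1.08), a difference not detectable at this depth. Polr1b, its second subunit, had 3 UMIs in QSC and 66 in ASC barcodes (1.81, 0.20 to 4.13). In the processome, Wdr43 stood at 59.3 and 104 CPM (0.82, 0.40 to 1.26) and Nop14 at 34.9 and 51.7 CPM (0.57, 0.02 to 1.16). Rrp12, an export factor of pre-ribosomes, had 4 and 73 UMIs (1.55, 0.13 to 3.46). Utp20 had 12 and 59 UMIs and a ratio of -0.35 (-1.26 to 0.68), which leaves its direction undetermined. Over the 4 processome genes together the level was 113 and 181 CPM, a log2 ratio of 0.68, with an interval that starts at 0.38.

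The 10 large subunit factors were all higher in the ASC library, from 0.53 to 2.24 on the log2 scale, and 6 of them by at least 2-fold. Nip7, which takes part in maturation of the precursor, stood at 22.1 and 104 CPM (2.24, 1.58 to 2.98). Nifk, a nucleolar partner of the proliferation antigen Ki-67, stood at 24.4 and 104 CPM (2.10, 1.47 to 2.80), and Nop2, an RNA methyltransferase, at 13.9 and 54.4 CPM (1.97, 1.14 to 2.93). Bop1, Pes1 and Wdr12 encode the 3 proteins of the PeBoW complex, and their values were not alike. Bop1 stood at 24.4 and 78.2 CPM (1.68, 1.05 to 2.39), whereas Pes1 stood at 45.3 and 65.6 CPM (0.53, 0.05 to 1.05) and Wdr12 at 38.3 and 55.2 CPM (0.53, 0.00 to 1.09). The lower ends for Pes1 and Wdr12 lie close to 0. Nop16 (1.45), Rrs1 (1.07), Ebna1bp2 (0.92) and Gnl3 (0.78), the last of which encodes the stem cell protein nucleostemin, lay between them.

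The group of abundant nucleolar proteins, led by Npm1 and Ncl, gave the largest part of the UMIs of the 30 genes. It held 1356 of 2885 CPM in QSC and 3704 of 6901 CPM in ASC barcodes. Npm1, which encodes the nucleolar chaperone nucleophosmin, stood at 595 CPM (512 UMIs) in QSC and 1934 CPM (10411 UMIs) in ASC barcodes, a log2 ratio of 1.70 (1.57 to 1.83). Ncl, which encodes nucleolin, stood at 528 and 1092 CPM (1.05, 0.91 to 1.19), so these highly counted genes differed from each other beyond counting error. Npm3, a relative of Npm1, stood at 119 and 337 CPM (1.51, 1.22 to 1.81). Ddx21, an RNA helicase that couples RNA polymerase I with later steps, stood at 61.6 and 238 CPM (1.95, 1.56 to 2.38). Mybbp1a, a nucleolar protein that binds Myb, stood at 53.5 and 102 CPM (0.93, 0.50 to 1.40). Processed pseudogenes of Npm1 are known, and their share in its counts was not examined.

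Srm and Myc lay at opposite ends. Srm stood at 54.6 CPM (47 UMIs) in QSC and 271 CPM (1456 UMIs) in ASC barcodes, a log2 ratio of 2.31 (1.89 to 2.76), which only Nhp2 exceeded among the 32 genes. Myc stood at 131 CPM (113 UMIs) and 49.6 CPM (267 UMIs), a log2 ratio of -1.40 (-1.73 to -1.07). Its level was thus lower in the library where nearly all of the nucleolar genes were higher.

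The level of the members differed with the depth of the barcode. The contractile-low ASC barcodes were split by their own UMIs, and the 30 nucleolar genes together stood at 3051 CPM (2885 to 3223) in the 114 barcodes of 2000 to under 5000 UMIs, at 3853 CPM in the 114 of 5000 to under 10000, at 5589 CPM in the 91 of 10000 to under 20000 and at 8893 CPM (8785 to 9003) in the 96 of 20000 or more. Srm stood at 76.9, 99.9, 165 and 391 CPM in the same bins, and Myc at 108, 71.2, 63.4 and 29.8 CPM. The 25 ASC barcodes under 2000 UMIs broke the order, with 5181 CPM for the 30 genes, 273 CPM for Srm and no Myc UMI. Between the deepest bin and that of 2000 to under 5000 UMIs, 28 of the 32 genes were at least 2-fold higher, against 24.8% of all genes, and Myc was at least 2-fold lower, against 16.3% of all genes. The deepest barcodes supplied 25632 of the 37143 UMIs of the 30 genes in this class. These bins also differed in makeup. Pax7 stood at 96.1 CPM at 2000 to under 5000 UMIs and 10.8 CPM at 20000 or more, against 29.4 CPM over the class. Immediate-early genes took 1.57% and 0.18% of UMIs in the same bins. Barcodes with at least 0.5% of UMIs from genes of S phase and mitosis numbered 3 of 114 and 17 of 96. The part of makeup in the trend was not tested.

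**Figure D2:**
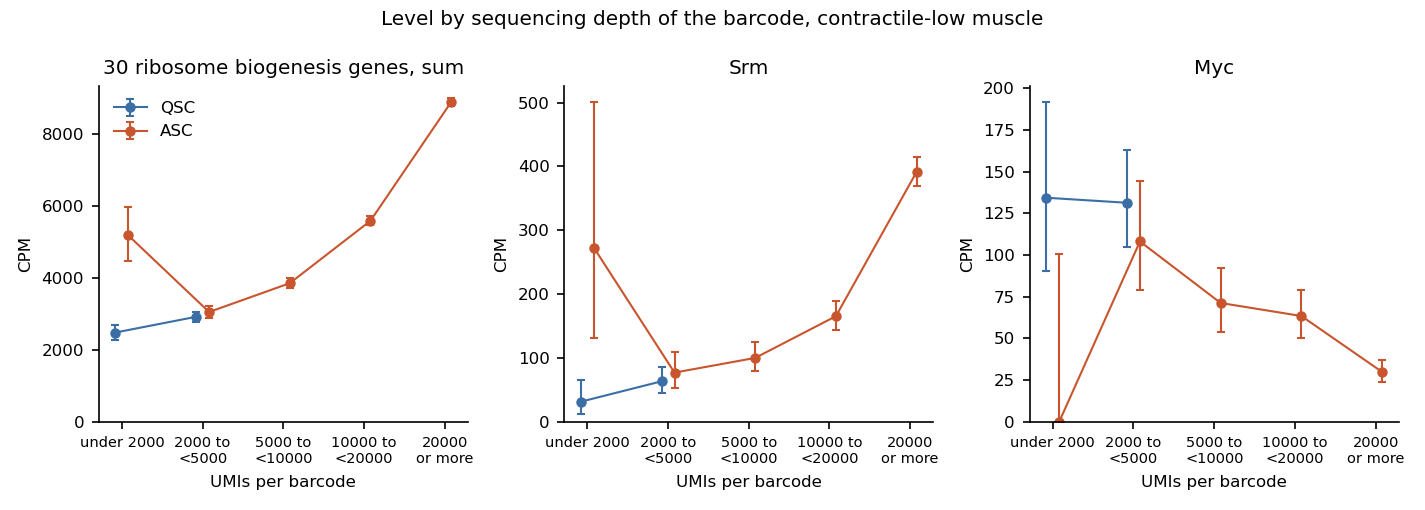
Level in CPM by UMIs per barcode in contractile-low muscle barcodes, for the sum of the 30 nucleolar genes, Srm and Myc; bars are Poisson 95% intervals, and a QSC bin of 1 barcode is left out. In the ASC library (orange) the sum climbs from 3051 to 8893 CPM and Srm from 76.9 to 391 CPM over the upper 4 bins while Myc goes from 108 to 29.8 CPM, and the QSC points (blue) lie close to the ASC points at 2000 to under 5000 UMIs but apart from them under 2000.

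At matched depth the libraries were close in one bin and apart in the other. In the 136 QSC and 25 ASC barcodes under 2000 UMIs the 30 genes stood at 2480 CPM (2278 to 2696) and 5181 CPM (4470 to 5972), and Srm at 31.3 and 273 CPM, from 7 and 10 UMIs. These barcodes were unlike in makeup too: Pax7 stood at 130 CPM in QSC and had no UMI in ASC barcodes. Their median mitochondrial share was 4.93% and 0.365%, and immediate-early genes took 3.65% and 0.354% of UMIs. Fibre genes took 1.80% and 3.02%, and immune markers 0.020% and 0.177%. In the 241 QSC and 114 ASC barcodes of 2000 to under 5000 UMIs the sum of the 30 genes had a log2 ratio of 0.06 (-0.04 to 0.17). Of the 27 members with at least 20 UMIs there, 2 were at least 2-fold higher in the ASC library, against 6.61% of all genes, and 1 at least 2-fold lower, against 15.3%. The median was -0.15, against -0.17 over all genes compared. Nhp2 still had an interval above 0, with 55.4 CPM and 195 CPM (1.81, 1.22 to 2.43), as had Nolc1 (1.12, 0.26 to 2.00), Ddx21 (0.67, 0.03 to 1.31) and Npm1 (0.50, 0.28 to 0.72), each with a smaller ratio than over all depths. Wdr12 (-1.78, -3.51 to -0.37), Nop56 (-0.72, -1.43 to -0.04) and Nop58 (-0.55, -1.01 to -0.10) were lower in the ASC library. Srm stood at 63.3 and 76.9 CPM (0.28, -0.44 to 0.99) and Myc at 131 and 108 CPM (-0.28, -0.84 to 0.26), so neither differed beyond counting error. The matched barcodes still differed in Pax7, with 244 and 96.1 CPM, in the share of 20 immediate-early genes, with 3.50% and 1.57%, and in mitochondrial share, with medians of 4.83% and 2.64%. This depth range was chosen after the data had been seen. How far depth accounts for the difference between the libraries was not tested.

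**Figure D3:**
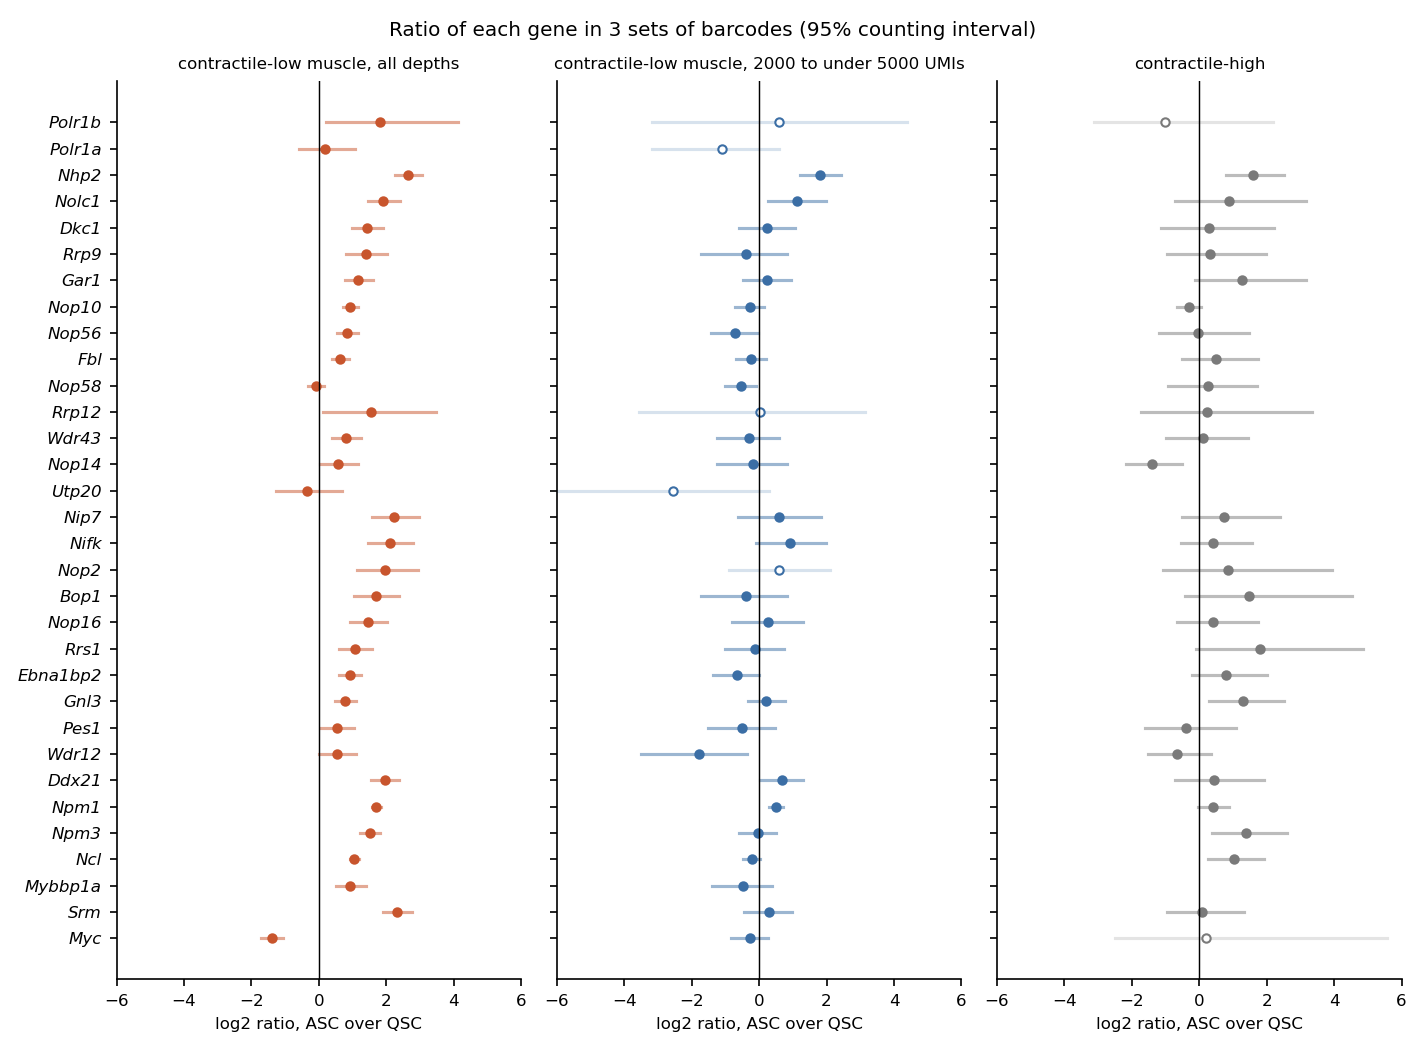
Log2 ratio of ASC over QSC for each gene in contractile-low muscle barcodes of all depths, in those of 2000 to under 5000 UMIs, and in contractile-high barcodes; bars are 95% counting intervals, open symbols have under 20 UMIs in both libraries together, and genes with no UMI in one library have no symbol. On the left 28 intervals lie above 0, a count not set against all genes. In the middle panel those above 0 are Nhp2, Nolc1, Npm1 and Ddx21.

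The contractile-high barcodes, which are mostly from the ASC library, carried the nucleolar genes at a lower level. The 30 genes stood at 1305 CPM in 104 QSC barcodes and 1750 CPM in 946 ASC barcodes, a log2 ratio of 0.42 (0.25 to 0.60). Of 28 members with at least 20 UMIs, 8 counted as at least 2-fold higher, against 27.3% of all genes, and 1 was at least 2-fold lower, against 9.18%. One of the 8, Mybbp1a, had no QSC UMI against 67 in the ASC library, which makes it at least 1.58-fold higher against a floor of 3 UMIs. Srm stood at 37.3 and 39.0 CPM. Myc had 1 and 16 UMIs. Within the ASC library, 26 of the 32 genes were at least 2-fold lower in contractile-high than in contractile-low barcodes, against 45.2% of all genes, and the median was -1.62 against -0.75. The makeup differed too. Nop10 was at 270 CPM in contractile-high and 397 CPM in contractile-low ASC barcodes, whereas Ncl was at 132 and 1092 CPM, and Ncl UMIs per Nop10 UMI were 0.490 and 2.75. In the QSC library the same ratios were 0.194 and 2.52.

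Within the contractile-low ASC barcodes the level of the members differed between classes, and so did depth, with medians of 16664 UMIs in cycling, 11265 in Myog-high and 6263 in Myog-low barcodes. The 38 cycling barcodes, with at least 0.5% of UMIs from genes of S phase and mitosis, gave 0.888% of their UMIs to the 30 genes. The 337 remaining barcodes low in Myog, the gene of the differentiation factor myogenin, gave 0.690%, and the 65 Myog-high barcodes 0.493%. Between cycling and Myog-low barcodes the median log2 ratio of the members was 0.35, against 0.15 over all genes, 1 member, Nop2, was at least 2-fold higher (1.07, 0.67 to 1.45), against 6.43% of all genes, and none was at least 2-fold lower, against 7.74%. Without barcodes of 20000 or more UMIs that median was 0.12. Between Myog-high and Myog-low barcodes it was -0.42, against -0.05, 2 members, Srm and Polr1b, were at least 2-fold lower, against 16.4% of all genes, and none was at least 2-fold higher, against 8.12%. Srm stood at 283 CPM in Myog-low and 111 CPM in Myog-high barcodes (-1.34, -1.68 to -1.03), whereas Polr1b had an interval of -3.25 to 0.13. Nifk went the other way (0.45, 0.12 to 0.77). Myc stood at 48.8 and 49.9 CPM (0.03, -0.51 to 0.54). With Myog-low barcodes of both libraries alone, the median over the 32 members was 1.13 and 19 were at least 2-fold higher in the ASC library, against 19.2% of all genes.

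**Figure D4:**
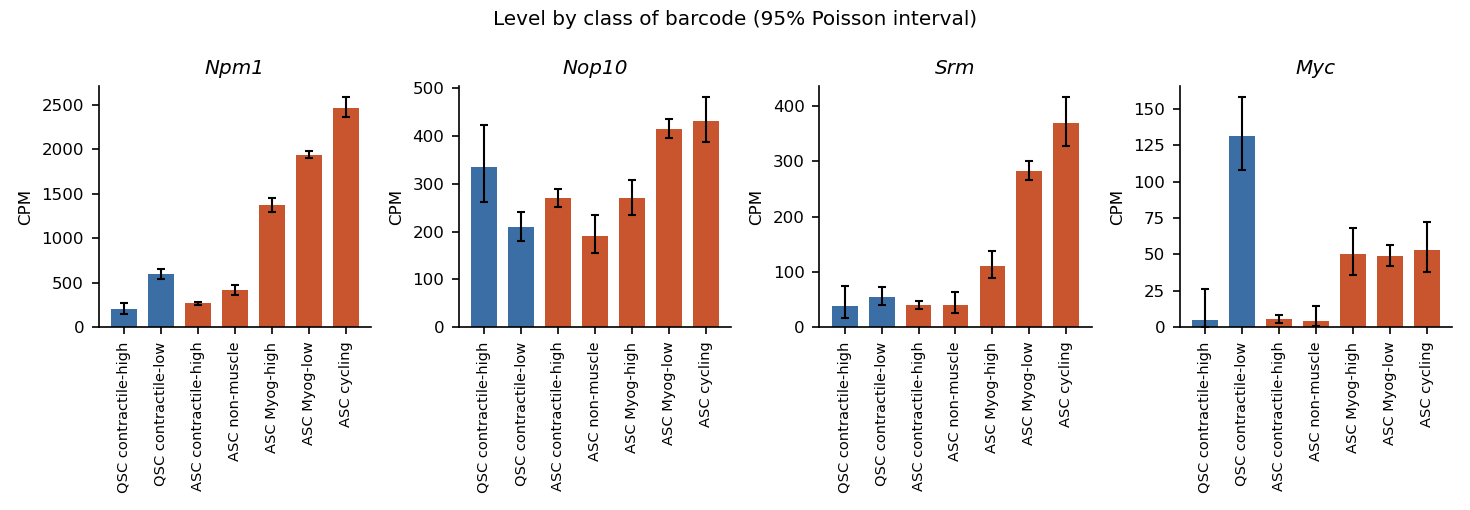
Level in CPM of Npm1, Nop10, Srm and Myc by class of barcode, with QSC classes in blue and ASC classes in orange; bars start at 0 and error bars are Poisson 95% intervals. Npm1 and Srm are highest in cycling ASC barcodes, Nop10 varies least between classes, and Myc is highest in contractile-low QSC barcodes, at 131 CPM.

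Shares of barcodes with a UMI were compared after each barcode was thinned to 1200 UMIs, which left out 7 QSC and 6 ASC barcodes of the contractile-low class. The share was higher in the ASC library for 27 of the 32 genes and its intervals lay apart for 11 of these and, in the other direction, for 1. Thinned shares were taken for the 32 members only, so these counts cannot be set against all genes. Srm was seen in 5.39% of QSC (3.32 to 8.20) and 21.2% of ASC barcodes (17.4 to 25.3), against 11.1% and 56.4% before thinning. Myc was seen in 12.9% (9.70 to 16.8) and 6.22% (4.14 to 8.92), against 21.4% and 32.7% before thinning, so its order turned with depth. In contractile-high barcodes thinned alike, Srm was seen in 3.33% and 4.77% and Myc in 1.11% and 0.58%. A thinned barcode held a median of 3 UMIs of the 30 genes in the QSC library (quartiles 2 and 5) and of 5 in the ASC library (3 and 9), and 24 and 11 barcodes held none.

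Which genes vary with the members was described across the 301 contractile-low ASC barcodes with at least 5000 UMIs, thinned to 5000 each. The points share a library, and the correlations are descriptions across barcodes that are not replicates. Among 2842 genes outside the 30, with the summed UMIs of the 30 genes, Eif5a had the highest Pearson correlation, at 0.66. It encodes the translation factor that spermidine serves to modify. It was followed by the chaperonin genes Hspd1 (0.66) and Hspe1 (0.65), by Ranbp1 (0.64) and Ran (0.60), which serve nuclear transport, by the RNA-binding protein gene Serbp1 (0.63), the translation factor gene Eif4a1 (0.63), the histone chaperone gene Set (0.62), and Hsp90aa1 (0.62) and Hsp90ab1 (0.59). The median over all ranked genes was 0.04. Srm was at 0.52, the 13th highest, whereas Odc1 (0.30) and Sms (0.19), which encode the enzymes before and after it in polyamine synthesis, ranked 215 and 579, and Myc (0.03) ranked 1446. Each member against the summed nucleolar genes other than itself ranged from 0.65 for Ncl and 0.64 for Npm1 to 0.01 for Rrp12, with 28 of the 32 above 0.1. Genes with few UMIs, Polr1a and Polr1b among them, had low values. Myc had a mean of 0.28 UMIs per thinned barcode, against 8.11 for Eif5a. The barcodes mixed cycling, Myog-high and Myog-low classes and differed in depth before thinning. Over the bins from 5000 UMIs up Eif5a stood at 888, 1526 and 2688 CPM, and the 30 genes rose over the same bins. Thinning does not remove such a difference, and its part in the correlations was not tested.

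Myc went with immediate-early genes rather than with the nucleolar genes in the ASC library. Immediate-early genes such as Fos and Egr1 respond within minutes to stimulation and are also known to be induced when SCs are dissociated from muscle. Contractile-low barcodes thinned to 1200 UMIs were split into 3 groups of about equal size by their UMIs of 20 immediate-early genes, a list without Myc. In the ASC library Myc stood at 11.5 (1.39 to 41.5), 51.7 (23.7 to 98.2) and 116 CPM (70.7 to 179) from the lowest to the highest group, and the 30 nucleolar genes at 7115, 5069 and 3258 CPM. The intervals of the lowest and highest group do not overlap for either. In the QSC library Myc stood at 108, 128 and 149 CPM and the 30 genes at 2930, 2722 and 2730 CPM, with overlapping intervals. The 3 groups of the ASC library also differed in depth, with medians of 17362, 9852 and 4882 UMIs before thinning. Across all depths the 20 immediate-early genes took 3.52% of UMIs in contractile-low QSC barcodes and 0.49% in ASC barcodes, and the part of dissociation in the Myc level was not tested.

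**Figure D5:**
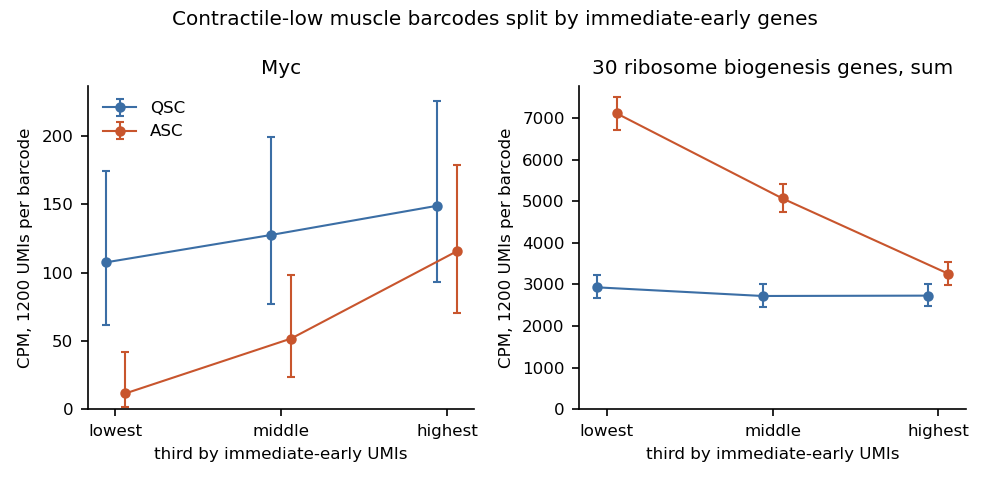
Myc and the sum of the 30 nucleolar genes, in CPM after thinning to 1200 UMIs per barcode, in contractile-low barcodes with the lowest, middle and highest numbers of immediate-early UMIs; bars are Poisson 95% intervals. In the ASC library (orange) Myc goes up from 11.5 to 116 CPM and the nucleolar genes go down from 7115 to 3258 CPM across the groups, while the QSC values (blue) overlap.

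Other genes of the same pathway were read from lists that do not hold the members, in contractile-low barcodes, where 19.5% of all genes compared were at least 2-fold higher and 22.5% at least 2-fold lower. Of 12 genes of RNA polymerase I transcription with enough UMIs, 5 were at least 2-fold higher in the ASC library and 1 at least 2-fold lower. The 5 included Cd3eap (1.59), a polymerase subunit, Polr1e (1.41) and the initiation factor gene Rrn3 (1.31), and the 1 was Ttf1 (-1.45), a terminator protein. Of 42 further small subunit and snoRNP genes, 20 were at least 2-fold higher and none lower, with Tsr1 at 3.41 (3 against 199 UMIs), Pno1 at 2.21 and Shq1 at 1.77 at the top, and Naf1 at -0.42, Dhx37 at 0.16 and Mphosph10 at 0.18 at the bottom. Of 46 further large subunit genes, 13 were at least 2-fold higher and none lower by that much, with Surf6 (2.56), Mak16 (2.39) and Noc2l (2.39) at the top, and Sbds (105 and 52.4 CPM), Nop53 (-0.84) and Gnl2 (-0.59) at the bottom. The medians of the 3 lists were 0.72, 0.86 and 0.65. At 2000 to under 5000 UMIs, 0 of 6, 3 of 22 and 0 of 32 genes with enough UMIs were at least 2-fold higher, against 6.61% of all genes, and the medians were -0.05, 0.25 and -0.07.

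The partners and rivals of Myc were divided. Of 11 genes of the Myc family and network, 5 were at least 2-fold lower in the ASC library, against 22.5% of all genes, and 2 counted as at least 2-fold higher, against 19.5%. Max, the partner without which Myc does not bind DNA, stood at 84.8 and 44.8 CPM (-0.92, -1.31 to -0.52). Mxd4 (-1.32), Mxi1 (-1.53), Mga (-1.66) and Mnt (9.30 and 4.64 CPM, interval of the log2 ratio -2.19 to 0.36), all of which compete with Myc for Max, were lower, as was Mycn (-1.94, from 8 and 13 UMIs). Mxd1 (-0.37), Mlx (-0.59) and Zbtb17 (0.39) had intervals that reach 0. Mxd3 and Mycl had no UMI in the QSC class and 65 and 32 in the ASC class, which makes them at least 3.46-fold and 1.71-fold higher against a floor of 3 UMIs. Of 15 metabolic and growth genes known as Myc targets, 10 were at least 2-fold higher, against 19.5% of all genes, and 1, Ccnd2 (-1.12, interval -2.33 to 0.25), lower, against 22.5%, with a median of 1.49. The highest were Nme1 (2.28), a nucleotide kinase, Hspe1 (2.24) and Odc1 (2.10), and the lowest beside Ccnd2 were Pabpc1 (-0.02) and Eif4a1 (0.33). At 2000 to under 5000 UMIs, 2 of 12 genes of this list were at least 2-fold higher, against 6.61% of all genes, and its median was 0.21.

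Some of the gene bodies share a feature that the list of names did not use. In the GENCODE M21 annotation of GRCm38, 6 of the 32 members hold 19 snoRNA genes within them (5 in Nop56, 4 in Nop58, 3 each in Wdr43, Gnl3 and Ncl, and 1 in Dkc1), against 1.27% of 21951 protein-coding genes that hold any. The 6 host genes had a median log2 ratio of 0.83 in contractile-low barcodes (-0.09 for Nop58 to 1.42 for Dkc1) and the other 24 nucleolar genes 1.42. Nop58 lies at chromosome 1, 59684971 to 59719044, and Srm at chromosome 4, 148591503 to 148594993, both on the + strand, and Myc at chromosome 15, 61985391 to 61990374. No member overlaps a counted gene on its own strand, and 13 overlap one on the opposite strand: Polr1a, Nop56, Dkc1, Nhp2, Rrp9, Wdr43, Nop14, Bop1, Pes1, Wdr12, Gnl3, Npm3 and Mybbp1a. The handling of strand is not given in the sources used here, so the counts of these 13 are less certain.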

How the data were processed

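Both libraries were made with single-cell 3′ v2 chemistry from sorted cells. The authors deposited UMI counts, whole numbers per gene and barcode. Cell Ranger is given as 6.0.2 in the file headers and as 7.1.0 in the submitters' processing notes, which also list mm10. The annotation and handling of strand are not given in the sources used here. The members and gene lists were chosen with earlier results of these data known.

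Counts were summed over barcodes of a class and scaled to CPM with exact Poisson intervals. Ratios carry exact conditional binomial intervals and shares Clopper-Pearson intervals, all at 95%. UMI totals of the kept barcodes ranged from 762 to 10167 (QSC) and from 798 to 76126 (ASC). Genes with at least 20 UMIs over both groups were compared, and 2-fold was the rule of size. A count of 0 was set to 3 UMIs for a bound. The study's limit of 1% mitochondrial UMIs was an alternative. All members were named; of other lists the 3 highest and 3 lowest ratios and every Myc network gene; and the 10 genes most correlated with the members. Intervals and thinning were checked on simulated counts. Python 3.11.15, numpy 2.4.6, scipy 1.17.1, pandas 2.3.3, and edgeR 4.0.16 (R 4.3.3, TMM factors only) were used.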

Additional observations from a re-analysis of the deposited data

Results flagged for a closer look

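Over all depths Nop14, a gene of the small subunit processome, differed between the classes of barcode in opposite directions beyond counting error. Its log2 ratio of ASC over QSC was 0.57 (0.02 to 1.16) in contractile-low muscle barcodes and -1.39 (-2.17 to -0.52) in contractile-high barcodes. It rested on 30 and 278 UMIs in the first class and on 16 and 86 UMIs in the second. The 16 QSC UMIs came from 8 of 104 barcodes, and the interval does not cover such unevenness between barcodes. At matched depth the contractile-low ratio was -0.17 (-1.24 to 0.83), which leaves its direction there undetermined. Over all depths Nop14 was the only member with intervals on opposite sides of 0 in these 2 classes, and the difference was not tested.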

How the results depend on the processing

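Over 8 results, 110 alternatives were run: 86 were labelled the same, 23 moved and 1 reversed. The same meant within counting error for sums and single genes, and within 1.5 times for the count. For medians it meant within the median limits of single genes, which are not a counting interval of the median. A median labelled the same can therefore have shifted. In contractile-low barcodes 1.10 became 0.75 as a mean of per-barcode CPM and 0.85 thinned, both labelled the same. No paired analysis was possible because each group has 1 library. For the summed log2 ratio of the 30 genes in contractile-low barcodes (1.26), the alternatives gave 1.18 with a higher minimum of genes per barcode, 1.37 with TMM scaling, 1.52 with median-of-ratios scaling, 0.87 as a mean of per-barcode CPM, 0.88 thinned to 1200 UMIs, 0.67 without barcodes of 20000 or more UMIs and 0.064 at 2000 to under 5000 UMIs. The median over all kept barcodes (0.92) was 0.33 as a mean of per-barcode CPM, 0.31 thinned and 0.26 without the deepest barcodes. In contractile-low barcodes the median (1.10) was 0.52 without the deepest barcodes and reversed to -0.15 at matched depth, and the number at least 2-fold higher (18) was 11 thinned, 9 without the deepest barcodes and 2 at matched depth. Srm (2.31) was 1.69, 1.26 and 0.28, and Myc (-1.40) was -1.01, -0.86 and -0.28, as a mean of per-barcode CPM, without the deepest barcodes and at matched depth. The median of cycling over Myog-low barcodes (0.35) was 0.81 with cycling called from 0.25%, 0.69 as a mean of per-barcode CPM and 0.65 thinned. It was 0.23 with TMM, 0.16 with median-of-ratios and 0.12 without the deepest barcodes. The median limits of single genes reach 0 for the thinned value (-0.49 to 1.63) and for these last 3. The causes of these shifts were not tested; the depth ranges by construction hold fewer barcodes. Under the 1% mitochondrial limit and with cycling called from 1%, 7 values could not be run because too few barcodes remained. Depth limits Polr1a, Polr1b, Utp20 and Rrp12 most.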

Other observations

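Ribosomal proteins are the parts that the nucleolar machinery assembles. Of 76 cytosolic ribosomal protein genes, 16 (21.1%) were at least 2-fold higher in contractile-low ASC barcodes, a share near the 19.5% of all genes, and none at least 2-fold lower, against 22.5%. Their median log2 ratio was 0.64, against 1.10 for the 30 nucleolar genes, and in contractile-high barcodes it was 0.81 against 0.40. Rplp1 (1.63), Rps12 (1.62) and Rps20 (1.52) had the highest ratios, and Rps27 (-0.53), Rpl13 (-0.32) and Rps19 (-0.20) the lowest. At 2000 to under 5000 UMIs per barcode the median was 0.68 for the ribosomal proteins and -0.15 for the nucleolar genes. Between the deepest ASC barcodes and those of 2000 to under 5000 UMIs it was -0.03 for the ribosomal proteins and 1.57 for the nucleolar genes. The difference between the 2 lists was not tested.

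Of the 20 immediate-early genes, 19 were at least 2-fold lower in the contractile-low ASC barcodes, against 22.5% of all genes, with a median of -2.46. At 2000 to under 5000 UMIs it was 9 of 18, against 15.3% of all genes, with a median of -0.98. Fosb (-4.25), Nr4a1 (-3.52) and Fos (-3.26) were lowest. Fosl1 was the exception, with 1 UMI in the QSC class and 298 in the ASC class, a log2 ratio of 5.57 (3.09 to 10.9), and Klf6 (-1.11) and Ier3 (-1.20) lay nearest to it. In the 34 QSC and 82 ASC non-muscle barcodes the 30 nucleolar genes stood at 1483 and 1932 CPM.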
